A study of Homo sapiens with 12 samples.

Results

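The aryl hydrocarbon receptor (AHR) and 5 genes of its response, AHRR, CYP1A1, CYP1B1, TIPARP and NQO1, were taken by symbol from the gene count table of an RNA-seq experiment in T47D cells, 6 of 25370 genes listed. T47D is an established estrogen receptor-positive human breast cancer line, and every library came from this single line. Cells were held for 48 h in medium with 5% charcoal-stripped serum, which removes most steroid hormones, and then for 24 h without serum. They next received vehicle, 10 nM anastrozole, 0.1 nM estradiol (E2) or both agents at those doses, with 3 libraries per group named a, b and c. The labels give 12 h of treatment, and the study's methods give a longer time. Anastrozole is a triazole inhibitor of aromatase, the enzyme that makes estrogens from androgens. The question for these 6 genes was whether the triazole, the estrogen or their combination changed a response that cells use against foreign aromatic and azole compounds.

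AHR is a ligand-activated transcription factor of the bHLH-PAS family that waits in the cytoplasm with HSP90 chaperones, moves to the nucleus when an aromatic ligand binds, and pairs there with ARNT on DNA. CYP1A1 and CYP1B1 are its best known targets and oxidize polycyclic aromatic compounds and estrogens, with CYP1B1 forming 4-hydroxylated catechol estrogens. AHRR (a repressor that competes for ARNT) and TIPARP (a mono-ADP-ribosyltransferase that modifies AHR) are induced by the receptor and limit it, and NQO1, a quinone reductase, answers both to AHR and to the oxidative stress factor NRF2.

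The bases before the start sites of AHR and of 3 target genes are shown. AHR and TIPARP passed the test of E2 against vehicle and CYP1A1 and NQO1 did not, as given further on. A difference in response between these genes was not tested. Each window shown holds the core of the AHR response element. The windows were matched by symbol for 5 of the 6 genes, all but CYP1B1, and come from RefSeq on GRCh38.p14, which is not the build of the count table. Each window has 300 bases, is written 5′ to 3′ on the strand of the gene and runs from 250 bases before the annotated start into the transcript. Capitals mark the core GCGTG, read as CACGC where it lies on the opposite strand.
AHR, chr7:17298402-17298701, plus strand: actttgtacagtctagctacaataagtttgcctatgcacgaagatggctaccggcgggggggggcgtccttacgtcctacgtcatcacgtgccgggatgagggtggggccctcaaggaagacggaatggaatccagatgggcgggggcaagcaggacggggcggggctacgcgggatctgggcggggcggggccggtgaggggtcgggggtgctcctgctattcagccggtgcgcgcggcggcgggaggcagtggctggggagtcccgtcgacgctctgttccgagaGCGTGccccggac
TIPARP, first of 3 windows, chr3:156674340-156674639, plus strand: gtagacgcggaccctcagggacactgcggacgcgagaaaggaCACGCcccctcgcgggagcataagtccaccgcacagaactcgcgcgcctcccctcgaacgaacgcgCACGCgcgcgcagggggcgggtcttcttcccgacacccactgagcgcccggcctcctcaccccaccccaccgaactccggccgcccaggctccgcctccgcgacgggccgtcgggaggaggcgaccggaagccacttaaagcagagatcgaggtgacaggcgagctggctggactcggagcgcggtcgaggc
CYP1A1, chr15:74725479-74725778, minus strand: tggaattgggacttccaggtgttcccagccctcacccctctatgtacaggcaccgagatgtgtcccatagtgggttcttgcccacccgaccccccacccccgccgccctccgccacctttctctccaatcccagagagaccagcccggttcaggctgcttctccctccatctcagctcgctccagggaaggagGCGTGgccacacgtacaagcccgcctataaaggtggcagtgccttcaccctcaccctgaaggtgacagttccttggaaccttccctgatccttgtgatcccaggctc
NQO1, chr16:69726511-69726810, minus strand: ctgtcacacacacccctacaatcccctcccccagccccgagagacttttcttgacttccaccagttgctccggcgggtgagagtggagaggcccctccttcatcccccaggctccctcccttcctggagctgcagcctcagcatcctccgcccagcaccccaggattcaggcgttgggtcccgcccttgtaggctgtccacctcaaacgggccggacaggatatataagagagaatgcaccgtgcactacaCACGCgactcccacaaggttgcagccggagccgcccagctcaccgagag

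The core begins at base 38 in AHR, at -208 and -142 in TIPARP, at -57 in CYP1A1 and at base 2 in NQO1 (positions are counted from the start as base 1, with a minus sign upstream). AHRR has it in both of its windows, at -30 in the first and at -247 and -42 in the second, and the other 2 windows of TIPARP do not hold these letters. On both strands, 36.5% of 35116 promoter windows of this length hold GCGTG at least once, so a match is common. The antioxidant response element TGACNNNGC occurs in 13.3% of all windows and the full palindromic estrogen response element (GGTCA and TGACC with 3 bases between them) in 0.057%, and neither was found in the 8 windows of these 5 genes. Both longer motifs have free bases, so a match to either can overlap a match to the core, and these matches are a description of letters only.

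All 12 libraries had the luminal markers of the labelled line. Each of 9 luminal epithelial genes (among them ESR1, GATA3 and KRT8) was present, with a summed level of 11094 to 11188 TMM-normalized CPM (counts on the gene scaled to a common library size) with vehicle, 10134 to 10900 with anastrozole, 10479 to 10732 with E2 and 10741 to 10972 with both. Every vehicle library thus lay above the other 9. Leukocyte and hepatocyte markers were each below 1 CPM on average, of 4 basal markers 1 exceeded it, and of 4 stromal markers 1 did. Libraries held between 9914253 and 17009776 counts on genes (median 13538621), and between 17856 and 18467 genes were detected. Replicates differed by more than counting noise (chi-square per degree of freedom of 1.27 to 4.62, where 1 is noise alone, highest for anastrozole replicates a and c). Nothing in the labels says that replicates came from separate cultures, so p-values measure the spread between these libraries only. In such bulk samples a lower share of cells with a transcript and less of it per cell cannot be told apart.

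Per kilobase of exon, the levels of the 6 genes spanned more than 2 orders of magnitude. NQO1 led with 51.7 CPM per kb over the 12 libraries, followed by CYP1B1 at 15.5, TIPARP at 10.1 and AHR at 6.16, and the ranges of these 4 genes over libraries did not overlap. AHRR at 0.482 and CYP1A1 at 0.286 CPM per kb were far lower, and their ranges overlapped (0.400 to 0.617 and 0.136 to 0.422 CPM per kb). In this line CYP1B1 was therefore the cytochrome P450 of the pair with ample reads (859 to 1803 counts per library), and CYP1A1 had between 6 and 23.

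The receptor itself, AHR (chr7:16955983-17385776, plus strand, GRCh37), stood at 40.4, 47.1 and 47.1 CPM in vehicle replicates a, b and c, a mean of 44.9 ± 3.85 (SD, n = 3). Anastrozole libraries gave 49.0, 48.1 and 52.0 CPM (49.7 ± 2.04), E2 libraries 51.6, 57.7 and 56.4 CPM (55.2 ± 3.16), and libraries with both agents 47.8, 46.9 and 51.0 CPM (48.5 ± 2.14). E2 was highest and vehicle lowest, and every E2 library lay above every vehicle library and every library with both agents. Over all genes tested, 25.4% had no overlap between E2 and vehicle and 21.1% had none between the combination and E2, so separation alone was common. The anastrozole and combination groups overlapped in the middle of the order. The gene model shares 29.5% of its exon bases with an unnamed gene on the same strand and 6.11% with another on the opposite strand, so reads there depend on the annotation used. Neither of these unnamed genes has a row under its identifier in the count table.

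AHRR, the repressor (chr5:321829-438406, plus strand), was a low gene with 50 to 71 counts per library. Its levels were 5.42, 4.71 and 3.89 CPM with vehicle (4.67 ± 0.766), 3.89, 5.15 and 5.85 with anastrozole (4.97 ± 0.990), 4.73, 4.19 and 4.72 with E2 (4.55 ± 0.307) and 4.32, 4.11 and 3.79 with both (4.07 ± 0.267). All 4 groups overlapped. A readthrough transcript that joins it to its neighbour PDCD6 covers 58.7% of its exon bases. That transcript has no row of its own name in the count table.

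CYP1A1 (chr15:75011883-75017877, minus strand), the classical reporter of AHR activation, was close to the limit of detection, which at 3 counts is 0.177 to 0.303 CPM by library. It gave 1.13, 0.456 and 0.545 CPM with vehicle (0.711 ± 0.368), 0.866, 0.910 and 0.873 with anastrozole (0.883 ± 0.0236), 1.42, 1.36 and 0.902 with E2 (1.23 ± 0.283) and 1.17, 1.04 and 0.858 with both (1.02 ± 0.158). Vehicle replicate a was above every anastrozole library, and E2 replicates a and b lay above the other 10 libraries, but the groups overlapped.

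CYP1B1 (chr2:38294116-38337044, minus strand) showed the most separated groups of the 6 genes. Vehicle libraries gave 78.5, 83.3 and 82.8 CPM (81.5 ± 2.60), anastrozole libraries 88.7, 86.8 and 89.0 (88.2 ± 1.19), libraries with both agents 93.6, 100.2 and 92.9 (95.6 ± 3.99) and E2 libraries 109.1, 106.5 and 106.0 (107 ± 1.63). No library of any group fell within the range of another group, in the order vehicle, anastrozole, both, E2. Against vehicle, the groups did not overlap for 17.7% of all genes with anastrozole, 25.4% with E2 and 18.5% with both, and the shares were 13.1% for anastrozole against E2, and 21.1% and 16.9% for the combination against E2 and against anastrozole. The antisense gene CYP1B1-AS1 covers 11.2% of its exon bases on the opposite strand and had 4 to 17 counts per library.

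TIPARP (chr3:156391024-156424559, plus strand) gave 43.6, 43.2 and 46.9 CPM with vehicle (44.6 ± 2.04) and 45.4, 46.0 and 42.9 with anastrozole (44.8 ± 1.61). It gave 56.7, 56.4 and 54.6 with E2 (55.9 ± 1.14) and 46.7, 51.2 and 49.8 with both (49.3 ± 2.31). The E2 libraries stood above all 9 others, and vehicle and anastrozole covered nearly the same range. The combination lay between, its replicate a within the vehicle range. Of all genes, 25.4% had no overlap between E2 and vehicle, 13.1% between anastrozole and E2, and 21.1% between the combination and E2.

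NQO1 (chr16:69740899-69760571, minus strand) was the most abundant of the 6 and the flattest. It gave 155.3, 155.1 and 154.8 CPM with vehicle (155 ± 0.250), 169.6, 159.6 and 144.1 with anastrozole (158 ± 12.8), 145.6, 149.5 and 151.9 with E2 (149 ± 3.19) and 160.2, 149.1 and 150.2 with both (153 ± 6.08). The vehicle libraries agree within less than 1 CPM and the anastrozole libraries span the other 9. Every E2 library lay below every vehicle library, and 25.4% of all genes had no overlap between these groups.

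**Figure D1:**
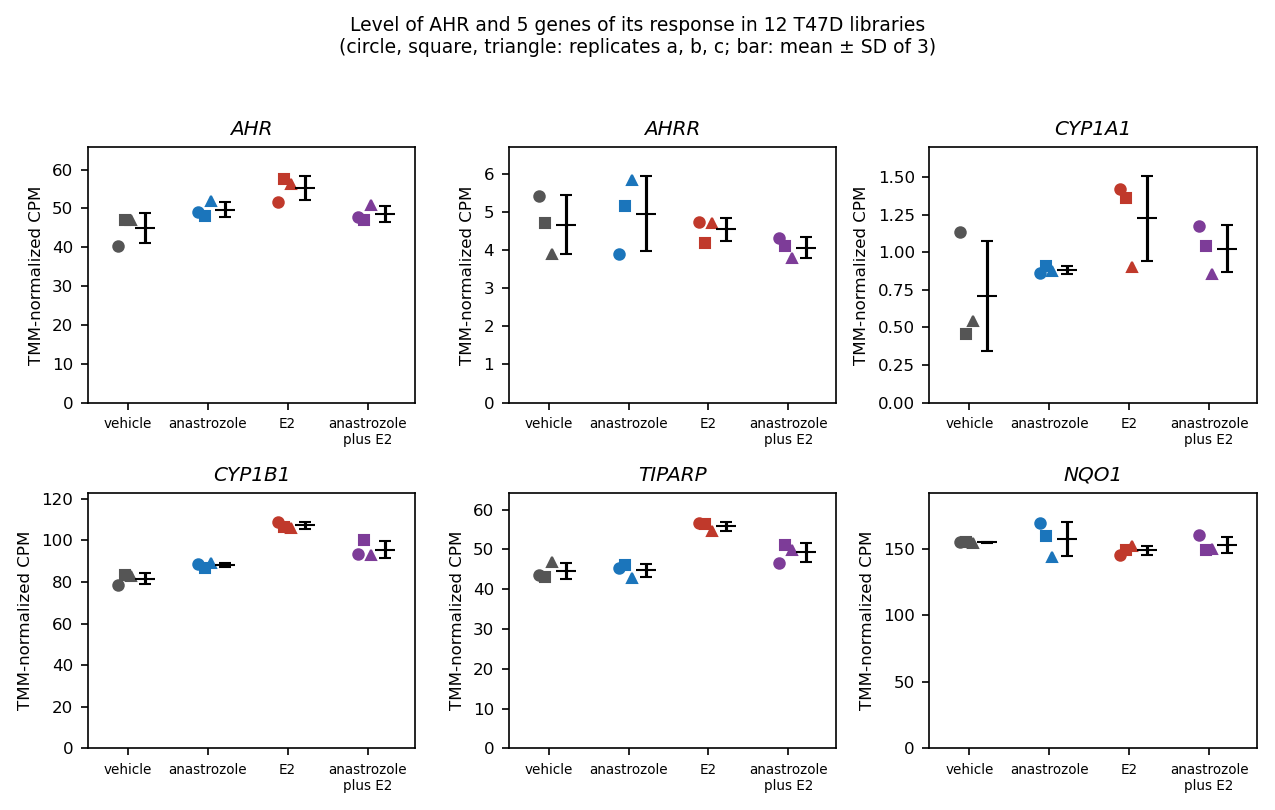
TMM-normalized level in CPM (y axis, from 0) of the 6 genes in each treatment group (x axis), with 1 symbol per library and the mean ± SD of 3 beside it. For AHR, CYP1B1 and TIPARP the E2 libraries sit above the vehicle libraries (AHR 55.2 against 44.9 CPM on average), while NQO1 has a mean between 149 and 158 CPM in each group. Of all genes, 25.4% had no overlap between E2 and vehicle.

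E2 alone raised 3 of the 6 genes over vehicle, and no member passed the threshold as lower. CYP1B1 was 1.31-fold higher (95% confidence interval 1.24 to 1.40), TIPARP 1.25-fold (1.16 to 1.35) and AHR 1.23-fold (1.14 to 1.33). On the log2 scale these are 0.39 ± 0.05 (SE), 0.33 ± 0.06 and 0.30 ± 0.06, with adjusted p of 1.2e-15, 6.4e-07 and 5.7e-06 in edgeR's quasi-likelihood test over all genes. Of 21132 genes tested, 12.0% passed in this comparison in either direction, against these 3 of 6 (6.06% of all genes were higher). All 3 are well expressed, and among the 11041 genes of at least 3 log2 CPM on average 23.5% passed. Luminal markers also moved in this comparison. Of 9, 5 were lower with E2 (ESR1, FOXA1, KRT8, KRT19 and CDH1, from -0.16 for KRT19 to -0.08 for CDH1), where 5.95% of all genes were lower, and their part in the rise of the 3 genes was not tested. The 3 calls held in each of the 6 fits that left out 1 library and under each of 12 other settings. Differences from vehicle depended on the GC content of the genes (Spearman's rho of -0.55 across 10842 genes, which share the libraries and are no independent replicates), and AHR has a lower GC content than most (percentile 10.7). With each library's trend on GC content removed, the log2 differences were 0.36 for CYP1B1, 0.28 for TIPARP and 0.23 for AHR, with adjusted p of 4.6e-15, 1.4e-05 and 0.0011, and the highest adjusted p over the 12 settings were 0.0011, 0.0062 and 0.033.

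The other 3 members did not pass with E2. CYP1A1 had the widest interval, a log2 difference of 0.79 from 0.05 to 1.54 with an adjusted p of 0.18 in edgeR, an interval that holds the size of the change in CYP1B1 as well as values near 0 and far above it. It was 1.28 without vehicle replicate a and 0.55 without vehicle replicate b (adjusted p of 0.065 and 0.48 in edgeR). NQO1 differed by -0.06 (interval -0.13 to 0.02, adjusted p = 0.41 in edgeR) and AHRR by -0.04 (-0.37 to 0.29, adjusted p = 0.95 in edgeR). The interval of NQO1 lies wholly below that of CYP1B1 (0.31 to 0.48).

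Anastrozole alone did not change any member past the threshold, where 3.67% of all genes passed. CYP1B1 was 1.08-fold and AHR 1.11-fold the vehicle level, with every anastrozole library above every vehicle library in both genes. Of all genes, 17.7% had no overlap between these groups. Their log2 differences of 0.11 (interval 0.00 to 0.22) and 0.15 (0.01 to 0.28) had adjusted p of 0.31 and 0.25 in edgeR's quasi-likelihood test, and these were the 2 members with an unadjusted p under 0.05, which 15.1% of all genes had. The difference of AHR was 0.08 without vehicle replicate a (adjusted p = 0.8) and 0.09 with the GC trend removed (adjusted p = 0.61). DESeq2, limma-voom and edgeR's exact test also called 0 of the 6. TIPARP differed by 0.01 (-0.13 to 0.14) and NQO1 by 0.03 (-0.07 to 0.12), and the upper bounds are 1.10-fold and 1.09-fold. For CYP1A1 the interval ran from -0.55 to 1.18 (the difference was 0.80 without vehicle replicate a and 0.08 without vehicle replicate b) and for AHRR from -0.28 to 0.42, and no induction of CYP1A1 by the triazole was detectable at this depth.

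The 2 single agents were compared directly as well. Anastrozole against E2 gave -0.27 ± 0.05 for CYP1B1 and -0.31 ± 0.07 for TIPARP on the log2 scale, both lower with anastrozole (adjusted p of 6.3e-06 and 5.9e-04 in edgeR), 2 of 6 members where 1.33% of all genes passed. Both calls held with each library left out and under each of 12 settings. AHR differed by -0.15 (interval -0.27 to -0.02, adjusted p = 0.4 in edgeR) and overlapped, since anastrozole replicate c reached 52.0 CPM and E2 replicate a 51.6. NQO1 differed by 0.09 (0.01 to 0.17, adjusted p = 0.5 in edgeR), and passed in the fit without anastrozole replicate c, where the difference was 0.15 with an adjusted p of 0.014. CYP1A1 and AHRR did not pass. Of 9 luminal markers, 1 passed, PGR, which was lower with anastrozole than with E2 (-0.19 ± 0.03, adjusted p = 7.3e-06 in edgeR). The estrogen-responsive gene GREB1 was lower as well (-0.26 ± 0.04, adjusted p = 2.1e-09 in edgeR), and the part of these 2 genes in the result was not tested.

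With both agents, CYP1B1 was the member that differed from vehicle, 1.17-fold higher (1.10 to 1.25) with a log2 difference of 0.23 ± 0.05 and an adjusted p of 8.1e-05 in edgeR, 1 of 6 where 5.04% of all genes passed. It held with each library left out and under each of 12 settings. TIPARP was 1.10-fold (log2 difference 0.14, adjusted p = 0.14) and AHR 1.08-fold the vehicle level (0.11, adjusted p = 0.33) in the same edgeR fit, where AHR had 0.04 without vehicle replicate a. Against anastrozole alone 0 of 6 members passed, where 2.90% of all genes did. CYP1B1 and TIPARP were higher by 0.11 and 0.13 with an unadjusted p under 0.05 (as 13.7% of all genes had) and adjusted p of 0.27 and 0.35 in edgeR's quasi-likelihood test, and DESeq2, limma-voom and the exact test called none.

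Set against E2 alone, the combination had lower levels of the same 3 genes that E2 had raised. On the log2 scale AHR was lower by -0.19 ± 0.05, TIPARP by -0.18 ± 0.05 and CYP1B1 by -0.17 ± 0.04 (adjusted p of 0.013, 0.017 and 0.0017 in edgeR), which is 0.877, 0.881 and 0.892 of the E2 level. In this comparison 6.74% of all genes passed, and 13.1% of those of at least 3 log2 CPM. This contrast and E2 against vehicle share the E2 libraries, so the values stand side by side and neither supports the other. Of the markers, KRT19 (luminal) and COL1A1 (the stromal marker above 1 CPM) were higher in the combination than in E2, by 0.11 and 0.17 (adjusted p of 0.0017 each in edgeR), and their part in the result was not tested. The result was less firm than the rise with E2. Differences here went with GC content (rho of 0.68 across 10842 genes), and with that trend removed the 3 differences were -0.11, -0.14 and -0.13 with adjusted p of 0.44, 0.26 and 0.064, so 0 of 6 members and 0.88% of all genes passed. Over the 12 settings the adjusted p ran from 0.0085 to 0.44 for AHR, from 0.011 to 0.26 for TIPARP and from 0.0014 to 0.073 for CYP1B1, and with DESeq2 or limma-voom CYP1B1 alone passed. AHR also did not pass without E2 replicate b, E2 replicate c or combination replicate b (adjusted p of 0.15, 0.081 and 0.11), nor TIPARP without E2 replicate b or combination replicate a (0.082 and 0.11), whereas CYP1B1 passed with each library left out.

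The interaction asks whether the effect of anastrozole differed between cells with and without E2. AHR and CYP1B1 passed, 2 of 6 where 10.9% of all genes did (20.4% of those of at least 3 log2 CPM). In AHR the effect of anastrozole with E2 was lower than its effect without E2 by -0.34 ± 0.09 on the log2 scale, and in CYP1B1 by -0.28 ± 0.07 (adjusted p of 0.0024 and 0.0011 in edgeR over 12 libraries). TIPARP had -0.19 ± 0.09 with an adjusted p of 0.16, and NQO1 had 0.01 with an interval of -0.10 to 0.13. The markers KRT8, KRT19 and COL1A1 had interactions of 0.13, 0.22 and 0.25 (adjusted p of 0.046, 5e-05 and 0.0039 in edgeR), whose part was not tested either. CYP1B1 and AHR passed in each of 12 fits without 1 library. Across genes the interaction followed GC content (rho of 0.71), and with the trend removed CYP1B1 kept -0.22 (adjusted p = 0.019) while AHR had -0.20 (adjusted p = 0.17) in edgeR. Over 11 settings the adjusted p of CYP1B1 reached 0.021 and that of AHR 0.17.

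**Figure D2:**
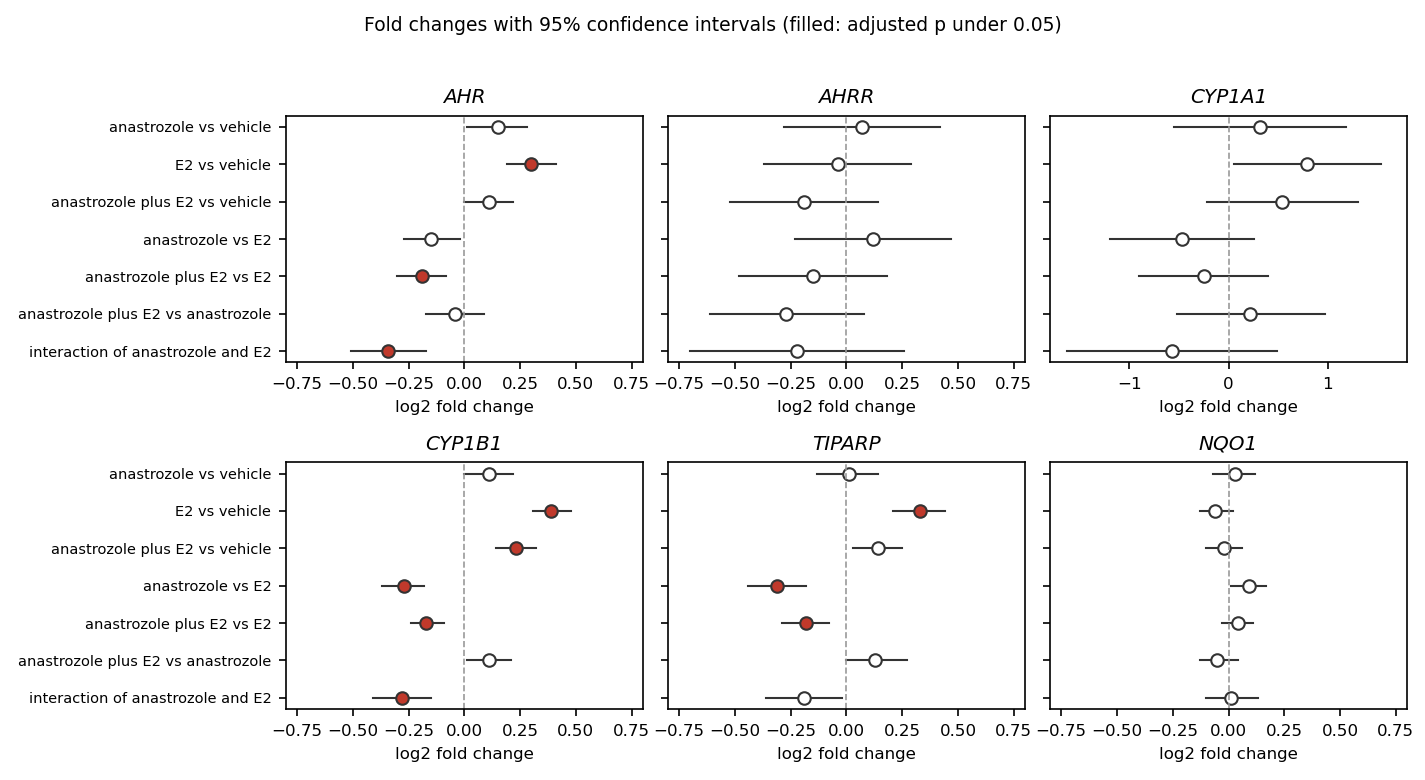
Log2 fold change (x axis) with its 95% confidence interval for each of the 6 genes in 6 comparisons of groups and in the interaction (y axis), filled where the adjusted p was under 0.05. CYP1A1 has an axis of its own range because its intervals are wide (0.05 to 1.54 for E2 against vehicle), and NQO1 has no filled point.

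**Figure D3:**
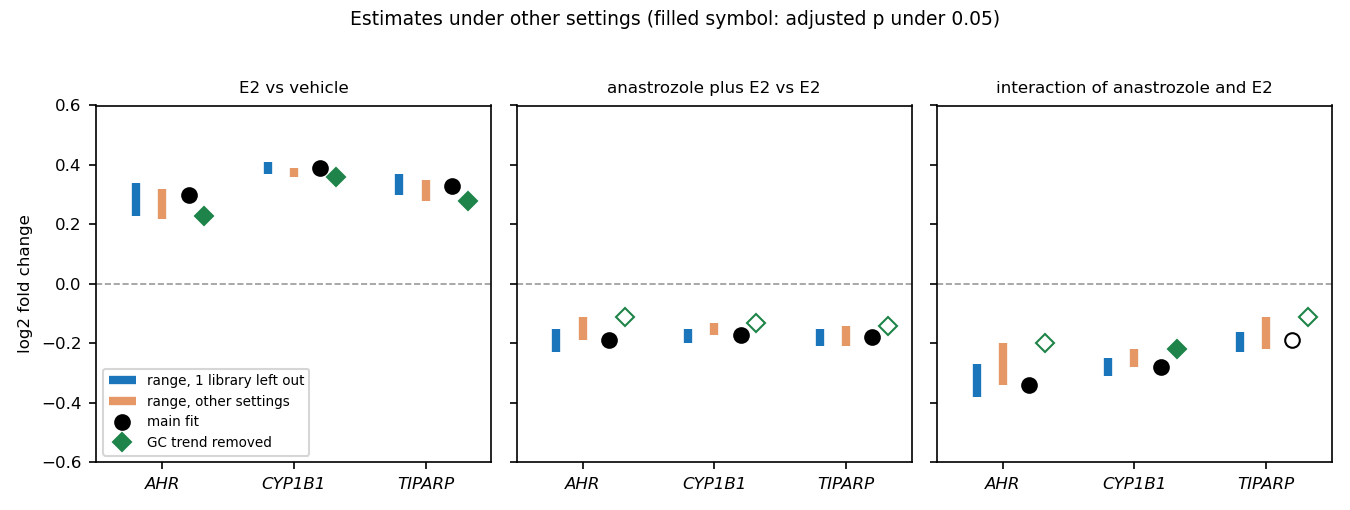
Log2 fold change (y axis) of AHR, CYP1B1 and TIPARP for 3 comparisons, with the main estimate, the estimate after removal of the trend on GC content, and the ranges over fits without 1 library and over the other settings. The 3 rises with E2 stay filled after GC removal (0.23 for AHR), and the differences of the combination from E2 become open symbols (-0.11 for AHR).

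Transcripts of the proteins that hold AHR in the cytoplasm, and of its nuclear partner, differed by small steps. Of 6 genes in this list, 3 were higher with E2, where 6.06% of all genes were, at a list median of 0.09 against 0.00 over all genes, and 0 passed with anastrozole or with both agents (medians of 0.01 and 0.01). With both agents HSP90AB1 had 0.08 (adjusted p = 0.097 in edgeR). It passed in 3 of 12 other settings, among them the replicate block (adjusted p = 0.0012) and the GC trend removed (0.046). The 3 genes higher with E2 were the chaperones HSP90AA1 (0.09 ± 0.03, adjusted p = 0.0048), HSP90AB1 (0.08 ± 0.03, adjusted p = 0.018) and the co-chaperone PTGES3 (0.11 ± 0.03, adjusted p = 0.0065), all in edgeR. The count of 3 ran from 0 to 4 with 1 library left out and from 1 to 3 over the other settings. These were small steps in very abundant transcripts, and PTGES3 did not pass once the GC trend was removed (0.06, adjusted p = 0.17). HSP90AA1 did not pass without vehicle replicate c or E2 replicate c (0.077 and 0.11), PTGES3 not without vehicle replicate c or E2 replicate a (0.058 and 0.055), and HSP90AB1 not without vehicle replicate c or any of the E2 libraries (0.078 to 0.16). ARNT, the DNA-binding partner, was at 93.3 ± 5.25 CPM with vehicle and 100.9 ± 3.22 with E2 (log2 difference 0.11, adjusted p = 0.08 in edgeR).

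Among 11 further genes reported as AHR targets, 10 were tested and UGT1A6 had 0 counts in each library, which at 3 counts allows up to 0.303 CPM in the shallowest. CYP1A2, ALDH3A1, ABCG2, SERPINB2 and PTGS2 were each below 1 CPM. Against vehicle 1 of the 10 passed in each treatment, where 3.67% of all genes passed with anastrozole, 12.0% with E2 and 5.04% with both. NFE2L2, which encodes NRF2, rose with E2 (0.20 ± 0.05, adjusted p = 5.9e-04, called under each alternative), CYP2S1, another P450, was higher with both agents (0.48 ± 0.14, adjusted p = 0.019), and SLC7A5, an amino acid transporter, was lower with anastrozole (-0.16 ± 0.05, adjusted p = 0.024), all in edgeR. CYP2S1 did not pass without vehicle replicate a or b or combination replicate b or c (0.071 to 0.13), nor with DESeq2, limma-voom or thinning (0.19, 0.087 and 0.055), and SLC7A5 not without vehicle replicate a or c or anastrozole replicate a or b (0.093 to 0.32), nor with the GC trend removed (-0.05, adjusted p = 0.67). NFE2L2 had 0.17 ± 0.06 with anastrozole (adjusted p = 0.059 in edgeR). This difference passed in 1 of 6 fits without 1 library and in 1 of 12 other settings. The list had medians of 0.46, 0.24 and 0.71 for anastrozole, E2 and both against vehicle, and of 0.15, 0.20 and 0.06 over the 5 genes of at least 1 CPM.

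NQO1 shares the NRF2 pathway with 20 listed genes, all tested. With E2, 5 were higher and 2 lower (median 0.15), with anastrozole 1 higher and 2 lower (0.07), and with both agents 3 higher and 1 lower (0.03). Over all genes, 6.06% were higher and 5.95% lower with E2, 1.40% and 2.27% with anastrozole and 2.71% and 2.33% with both. These counts moved with the settings. With anastrozole the 1 higher became 3 without anastrozole replicate c and 0 with limma-voom, and the 2 lower became 0 with the GC trend removed. With E2 between 3 and 6 were higher. OSGIN1, a growth inhibitor induced by oxidative stress, rose with E2 from 47.8 ± 1.93 to 59.7 ± 3.76 CPM (0.32 ± 0.06, adjusted p = 6.7e-07) and was at 62.0 ± 1.57 CPM with both (0.38 ± 0.05, adjusted p = 9.3e-10 in edgeR) (with anastrozole alone the difference was -0.02, adjusted p = 0.94). Compared directly, anastrozole was below E2 for OSGIN1 (-0.34 ± 0.06, adjusted p = 5.1e-05 in edgeR), a difference that did not pass with limma-voom (adjusted p = 0.081). FTH1 and FTL, the ferritin chains, were higher with both agents (0.25 ± 0.03 and 0.23 ± 0.04, adjusted p of 8.3e-13 and 1.4e-06), and FTL was also higher with anastrozole alone (0.23 ± 0.05, adjusted p = 5.9e-04 in edgeR). With E2 alone FTH1 was higher by 0.14 ± 0.03 and FTL by 0.13 ± 0.04 (adjusted p of 8.5e-05 and 0.0089 in edgeR). FTL had 0.21 with the GC trend removed, and did not pass without vehicle replicate b, E2 replicate b or E2 replicate c (0.051, 0.05 and 0.22), nor with DESeq2, limma-voom or thinning (0.078, 0.12 and 0.097). FTH1 did not pass with limma-voom (0.1).

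KEAP1, the inhibitor that marks NRF2 for degradation, was the member of this list that was lower in each treatment. It went from 42.2 ± 1.95 CPM with vehicle to 33.6 ± 2.14 with E2, 35.8 ± 1.70 with anastrozole and 35.8 ± 1.05 with both. The 3 comparisons share the vehicle libraries, so none supports another. The log2 differences were -0.32, -0.24 and -0.24 with adjusted p of 1.4e-05, 0.037 and 0.0063 in edgeR. With E2 it was -0.20 once the GC trend was removed (adjusted p = 0.015). The difference with anastrozole did not pass without vehicle replicate a or c or anastrozole replicate a or b (0.13 to 0.31) or with the GC trend removed (-0.13, adjusted p = 0.39), and passed in 4 of 12 settings. That with both agents did not pass without vehicle replicate c (0.11), or with DESeq2, limma-voom or thinning (0.073, 0.071 and 0.11). NQO1 itself did not pass in any of these comparisons.

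TIPARP is also called PARP7, and of 12 other mono-ADP-ribosyltransferases of the PARP family or their inactive relatives, 3 were lower in each treatment, where 2.27%, 5.95% and 2.33% of all genes were lower with anastrozole, E2 and both. These were PARP9, PARP10 and PARP14, again against the same 3 vehicle libraries, so the 3 comparisons are not independent. PARP9 fell from 63.1 ± 3.31 CPM with vehicle to 50.5 ± 3.09 with anastrozole, 52.7 ± 2.24 with E2 and 49.4 ± 0.419 with both (log2 differences of -0.32, -0.26 and -0.35, adjusted p of 2.1e-04, 4.4e-05 and 1.2e-08 in edgeR). PARP14 differed by -0.27, -0.20 and -0.24 (adjusted p of 8.3e-04, 0.0011 and 9.6e-05 in edgeR), and with E2 not without E2 replicate a (0.056). PARP10 differed by -0.31, -0.32 and -0.19 (adjusted p of 1.3e-05, 7.6e-10 and 0.0016 in edgeR). With the GC trend removed PARP10 had -0.15 with anastrozole (adjusted p = 0.057) and -0.16 with E2 (adjusted p = 0.0078), and it did not pass with both agents without vehicle replicate c or combination replicate b (0.091 and 0.056). PARP4 was higher with E2 (0.23 ± 0.08, adjusted p = 0.021 in edgeR), not without vehicle replicate b or c or E2 replicate b or c (0.065 to 0.3), nor with the GC trend removed (0.21, adjusted p = 0.064). The list medians were -0.04, -0.04 and -0.06, and over the 11 genes of at least 1 CPM they were -0.14, -0.06 and -0.12. TIPARP and these 3 relatives moved in opposite directions with E2. With limma-voom, which passed 15 genes for anastrozole against vehicle, no call in any of the lists held for that comparison.

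Of 10 bHLH-PAS relatives of AHR, HIF1A alone passed against vehicle (1 of 10 with E2, where 12.0% of all genes passed), higher with E2 by 0.11 ± 0.04 (adjusted p = 0.02 in edgeR), and it had 0.02 with the GC trend removed (adjusted p = 0.78). After the same step EPAS1, which encodes another hypoxia-inducible factor, passed with anastrozole (0.21, adjusted p = 0.05, from 0.17 and 0.19 before it). HIF1A also did not pass without vehicle replicate a or c or E2 replicate a or c (0.058 to 0.19).

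**Figure D4:**
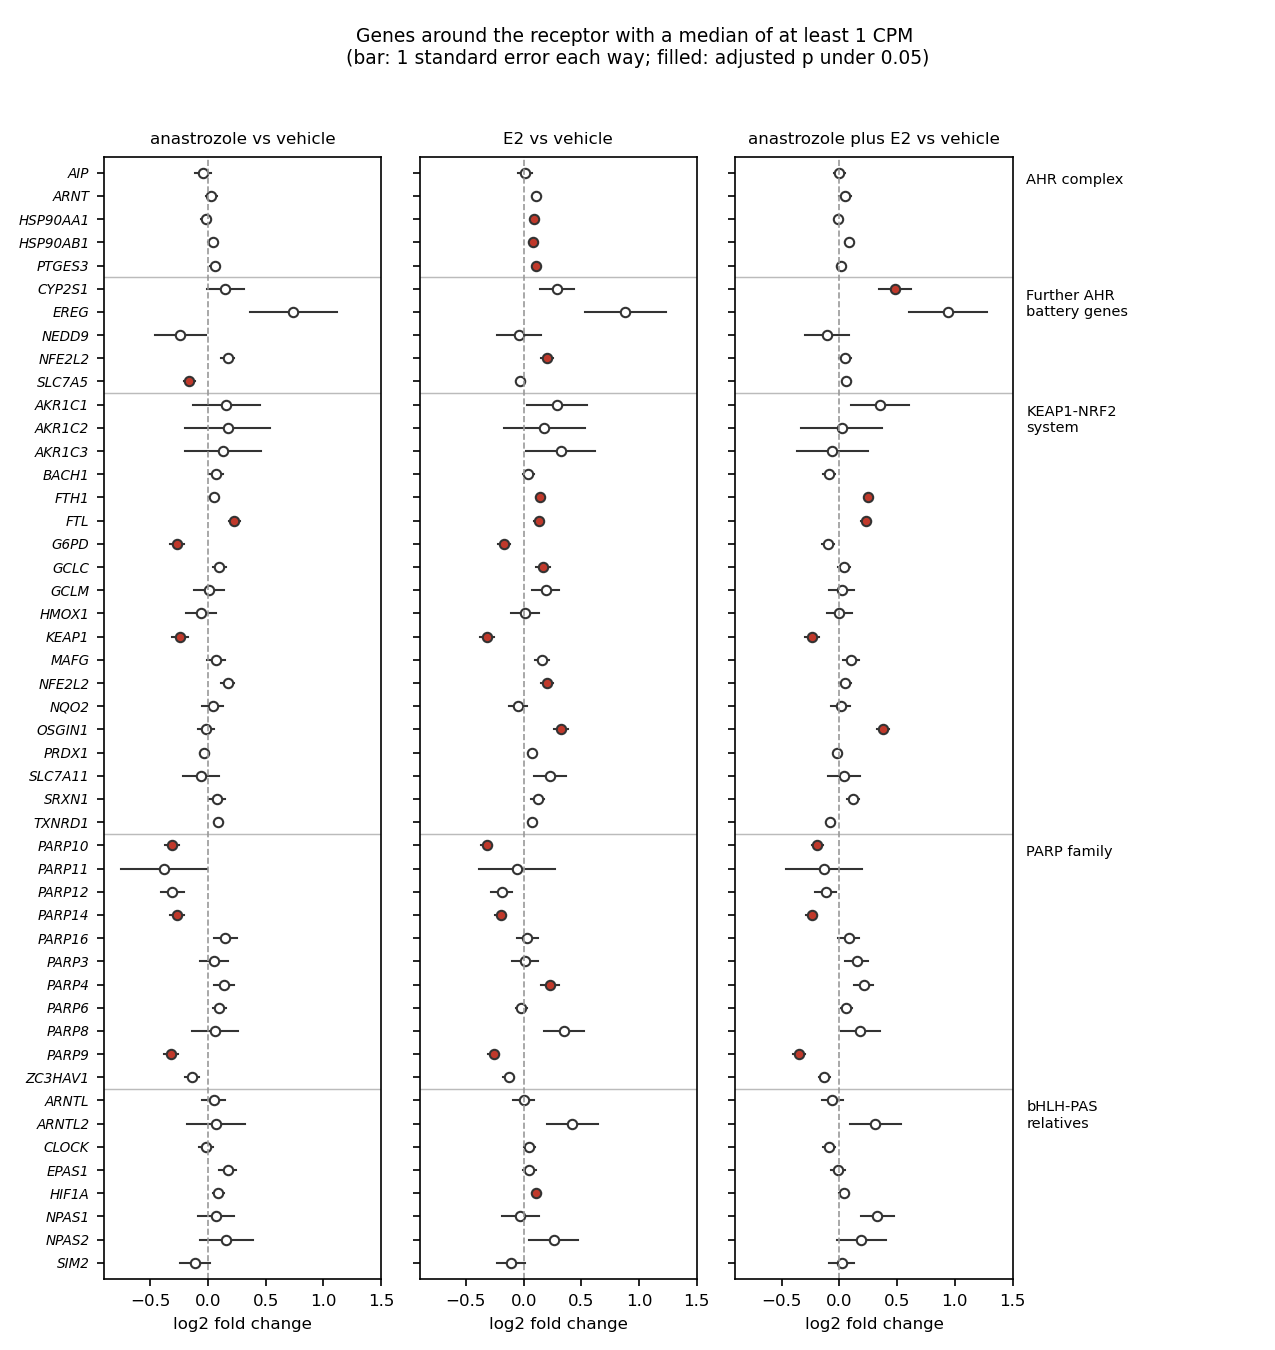
Log2 fold change (x axis, bars 1 standard error each way) of each listed gene with a median of at least 1 CPM (y axis, by list) for anastrozole, E2 and both agents against vehicle, filled where the adjusted p was under 0.05. Filled points are small, from -0.35 for PARP9 to 0.48 for CYP2S1.

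As a reference for the estrogen itself, 5 known estrogen-responsive genes were listed, of which 1 was higher with E2 and with both agents and 2 were lower with anastrozole (the shares of all genes in those directions were 6.06%, 2.71% and 2.27%). With E2 the differences of PGR, TFF1, PDZK1 and XBP1 were 0.06, 0.10, 0.16 and 0.04 (adjusted p of 0.1, 0.9, 0.091 and 0.49 in edgeR). TFF1 was low, at 0.87 to 2.24 CPM by library, and its difference had a standard error of 0.28. GREB1, an early target of the estrogen receptor, was higher with E2 (0.13 ± 0.03, adjusted p = 7.3e-04) and with both agents (0.18 ± 0.03, adjusted p = 4.3e-06) and lower with anastrozole (-0.14 ± 0.04, adjusted p = 0.029) in edgeR. PGR, the progesterone receptor, was lower with anastrozole (-0.13 ± 0.04, adjusted p = 0.026). The anastrozole call of GREB1 held in 1 of 6 fits without 1 library (not without any vehicle library or anastrozole replicate a or b, adjusted p of 0.053 to 0.25), and did not hold with the GC trend removed (-0.10, adjusted p = 0.1). That of PGR held in 2 of 6, not without anastrozole replicate a or b or vehicle replicate b or c (0.16 to 0.44), with -0.08 without vehicle replicate b. With E2 the step was 0.39 in CYP1B1 (interval 0.31 to 0.48) and 0.13 ± 0.03 in GREB1. Once the GC trend was removed, the steps were 0.36 and 0.18. The difference between these 2 genes was not tested.

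Over the 12 libraries, the log2 levels of CYP1B1 and TIPARP ran together with a Pearson r of 0.916, AHR and CYP1B1 with 0.769 and AHR and TIPARP with 0.661, whereas NQO1 had -0.444 with CYP1B1. Among 11036 genes of 3 log2 CPM or more on average (11037 for AHRR), those most like CYP1B1 were SLC4A7 (0.958), SLC25A36 (0.955) and JAK1 (0.951), the closest to AHR were YY1 (0.952), E2F8 (0.936) and EZR (0.923), and the closest to TIPARP were KIAA1715 (0.935), CTNNAL1 (0.921) and C12orf75 (0.919). NQO1 was most like ZNF485 (0.955), GNPNAT1 (0.888) and BTF3 (0.859), and AHRR most like FKBPL (0.832), PCIF1 (0.829) and ELMO2 (0.791). These are descriptions over 12 libraries in 4 groups that share their treatments and any trend on GC content, and CYP1A1 was too low to be ranked.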

How the data were processed

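RNA was measured in 12 T47D libraries. Per the labels it was polyA RNA, while the methods describe a total RNA library kit. The authors used TopHat 2.0.14 on Bowtie 2.2.6 for alignment (build hg19) and deposited whole-number counts per gene from htseq-count, whose version, strand setting and annotation are not given in the sources used here. Reads over overlapping genes can therefore not be apportioned. The 5 summary lines stayed out (32.7% to 33.5% of reads were assigned to genes, and 58.6% to 59.9% fell on no feature).

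From the counts, the 4238 genes at 0 in each library were removed, and 21132 genes were fitted with edgeR 4.0.16 in R 4.3.3 (TMM, robust quasi-likelihood test, 2-sided, Benjamini-Hochberg over all genes, threshold 0.05). Each comparison used its 6 libraries and the interaction all 12. The standard error is the absolute log2 fold change over the square root of F. CPM are TMM-normalized. Gene positions, exon lengths and GC content came from GENCODE v44lift37 on GRCh37 (21539 genes matched by symbol, 1450 by synonym, 2381 unmatched), and promoter windows from RefSeq. Scripts were tested on simulated counts.

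Alternatives were DESeq2 1.42.0 size factors or library size alone, a low-count filter (filterByExpr, or a floor of 3 on the mean log2 CPM), DESeq2, edgeR's exact (or likelihood ratio) test or limma-voom (limma 3.58.1), all 12 libraries in each fit, thinning to the smallest total, the trend on GC content removed, the replicate letter as a block, the latter together, and each library left out. The 6 genes and the lists were chosen with earlier results of these data known. Named were the 6 genes, up to 4 genes per list with the smallest adjusted p among those past the threshold against vehicle, and the 3 genes most correlated with each member of at least 1 CPM. A further list is not reported here.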

Additional observations from a re-analysis of the deposited data

Results flagged for a closer look

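A test of the difference itself, in edgeR over 12 libraries, separated the effect of anastrozole with E2 from its effect without E2. It did so for 2 of the 6 genes and for 8 of the 17 genes named from the lists. Of all genes 10.9% passed, and 20.4% of those of at least 3 log2 CPM on average. The 17 were named for their small p against vehicle, in libraries that the interaction also uses. The log2 difference was -0.34 for AHR, -0.28 for CYP1B1, -0.31 for NFE2L2, -0.15 for PTGES3, -0.16 for HIF1A, 0.25 for SLC7A5, 0.33 for KEAP1, 0.44 for PARP10, 0.23 for PARP14 and 0.20 for GREB1. With the trend on GC content removed the values were -0.20 for AHR (adjusted p = 0.17), -0.22 for CYP1B1 (0.019), -0.21 for NFE2L2 (0.037) and 0.31 for PARP14 (6.6e-04). In that fit 2.63% of all genes passed. After the same step SLC7A5 had 0.03 (adjusted p = 0.94), KEAP1 0.11 (0.72), PARP10 0.13 (0.34), GREB1 0.10 (0.24), PTGES3 -0.08 (0.43) and HIF1A -0.01 (1). FTL (-0.27, adjusted p = 6e-05), PARP9 (0.29, 0.01) and PGR (0.15, 0.0072), also among the 17, passed with the trend removed and not before. Over the 11 other settings, HIF1A passed in 5, PARP14 in 7 and PTGES3 in 8. PARP14 did not pass with filterByExpr, DESeq2, the exact (or likelihood ratio) test or limma-voom (adjusted p up to 0.11). AHR, SLC7A5, KEAP1, PARP10 and GREB1 passed in 9 each, and CYP1B1 and NFE2L2 in 11. With 1 library left out, PTGES3 and HIF1A each passed in 4 of 12 fits, PARP14 in 7 and KEAP1 in 9, whereas AHR, CYP1B1, NFE2L2, SLC7A5, PARP10 and GREB1 passed in 12 of 12. KEAP1 did not pass without vehicle replicate c, anastrozole replicate a or E2 replicate a (adjusted p of 0.068, 0.054 and 0.062), and PARP14 not without vehicle replicate c, anastrozole replicate b or c, E2 replicate a or combination replicate c (0.054 to 0.14). PTGES3 and HIF1A did not pass without vehicle replicate a or c, anastrozole replicate a or b, E2 replicate a or c or combination replicate b, nor PTGES3 without combination replicate c and HIF1A without combination replicate a (0.05 to 0.17).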

How the results depend on the processing

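The counts of the 6 genes past the threshold were equal to the main count in 119 of 131 refits, and no fold change of a member that had passed changed sign. The count of 3 for anastrozole plus E2 against E2 became 1 with DESeq2 (CYP1B1), 1 with limma-voom (CYP1B1), 1 with thinning to the smallest total (TIPARP), 0 with the GC trend removed and 0 with the GC trend removed together with the replicate block. With 1 library left out it lay between 1 (without E2 replicate b, where CYP1B1 passed) and 3, with 2 without E2 replicate c or combination replicate a or b. The count of 2 for anastrozole against E2 became 3 without anastrozole replicate c, where NQO1 also passed. The count of 2 for the interaction became 1 with the GC trend removed and 1 with GC removal together with the block (CYP1B1 each time). PARP10 in anastrozole plus E2 against E2, 0.13 in the main analysis (adjusted p = 0.043), changed sign with the GC trend removed (-0.0251), also together with the block (-0.0276). That these moves came with GC removal is by construction, and the cause of the others was not tested.

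The labels do not say whether libraries with the same letter are paired across groups. Correlations of same-letter deviations over 11037 genes lay between -0.20 and 0.18. With 3 libraries per group, these values cannot decide whether the letters pair them. The replicate block alone moved the counts over all genes against vehicle. They went from 776 to 823 for anastrozole, from 2537 to 2207 for E2 and from 1065 to 1439 for both agents. In the same fits the counts of the 6 genes stayed at 0 for anastrozole, 3 for E2 and 1 for both agents against vehicle. Of the calls of genes named from the lists, the block ended that of HSP90AB1 with E2 (adjusted p = 0.07), PARP10 in the combination against E2 (0.051) and HIF1A in the interaction (0.053), and with both agents against vehicle it added HSP90AB1 (0.0012) and PARP4 (0.049). HSP90AB1 with E2 also did not pass with all 12 libraries in the fit (0.078) or with the exact test (0.094). Other calls of listed genes against vehicle were lost in some settings too. With anastrozole, SLC7A5 passed in 5 of 12, GREB1 in 8 and PGR in 7. With E2, PARP4 passed in 8, HIF1A in 7, and HSP90AA1 and PTGES3 in 10 each, and with both agents PARP10 in 10.

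Counts over all genes moved by more than 1.5 times. Against vehicle, 776 genes for anastrozole became 419 under filterByExpr, 372 with a floor of 3 on the mean log2 CPM, 416 with the exact test, 238 with DESeq2, 15 with limma-voom and 1229 with all 12 libraries. The 2537 for E2 became 1407 with DESeq2, 1379 with limma-voom, 1560 with the GC trend removed and 1491 with the block added. The 1065 for both became 476 with DESeq2, 347 with limma-voom and 1607 with GC removal and block. Anastrozole against E2 went from 280 to between 70 (limma-voom) and 460 (GC removed), with 180 under the block. Anastrozole plus E2 went from 1424 to between 186 (GC removed) and 1487 (block) against E2, with 824 with all 12 libraries, DESeq2 at 638 and limma-voom at 451, and from 612 to between 90 (limma-voom) and 823 (all 12 libraries) against anastrozole. The interaction went from 2295 to 555 (GC removed) and 592 (with block). Single libraries also moved these counts, and with them the shares of all genes quoted beside the members. Against vehicle, anastrozole had 191 without vehicle replicate c, 287 without vehicle replicate a, 246 and 301 without anastrozole replicates a and b and 1651 without anastrozole replicate c. E2 had 1741 to 2808, and both agents 682 and 686 without combination replicates b and c. Anastrozole against E2 had 107 to 177 without an E2 library and 134 without anastrozole replicate b. The combination against E2 had 885 without E2 replicate c and 935 without combination replicate c. Against anastrozole it had 1706 without anastrozole replicate c and 234 to 348 without any of the other 5. The interaction had 1535 to 3202. CYP1A1, at 6 to 23 counts, is limited by depth, and the floor of 3 log2 CPM left out CYP1A1 and AHRR.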
